A study of Mus musculus with 12 samples.

Results

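Sorted SCA1+ fibroblasts of mouse back skin taken 3 d after punch wounding were compared with cells of the same sort from skin without a wound (NW). The comparison rests on 6 of the 12 libraries of the series, 3 of 3 d and 3 of NW, and on all 25239 genes of the count table, of which 14901 had enough counts to be tested. Every mouse was a wild-type C57BL/6 male of 8 weeks, no group carried a transgene or received an agent, and the wounds were full-thickness holes of 4 mm. Each group came from 3 mice. Skin was digested with liberase, and live cells that lacked CD45 (a leukocyte protein) and CD31 (an endothelial protein) and carried SCA1, the product of Ly6a, were sorted for RNA-seq of polyadenylated RNA. The gate selects by surface protein and not by lineage, and some epidermal and hair follicle cells are known to carry SCA1 as well. The remaining 6 libraries, 3 of 16 h and 3 of 1.5 d, entered the fit for its estimate of the spread and are set beside the 3 d values.

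Dermal fibroblasts make and renew the collagen-rich matrix of skin. After injury they migrate into the wound, signal to leukocytes, divide, lay down a provisional matrix rich in fibronectin, tenascin and hyaluronan, and in part become myofibroblasts, contractile cells that carry smooth muscle actin. TGF-beta, mechanical tension and the splice forms of fibronectin are known inducers of that state, and AP-1, NF-kB, SRF and YAP are among the transcription factors that act in it.

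Levels are given as CPM, the counts of a gene scaled to a common library size by TMM factors, for libraries 1, 2 and 3 of a group in that order. A gene is called higher or lower at an adjusted p under 0.05 in edgeR's quasi-likelihood test, with Benjamini-Hochberg adjustment across the 14901 genes. Changes are log2 changes of 3 d over NW with an approximate SE, and n is 3 per group throughout. Library totals ran from 27407164 to 29181224 counts for NW and from 26389453 to 28556445 for 3 d, and libraries of 1 group correlated at 0.916 to 0.940 (log2 CPM, across genes). The gate gene Ly6a stood at 1142, 1146 and 869.7 CPM in NW and at 1211, 1101 and 961 CPM at 3 d and was not called. The fibroblast receptor gene Pdgfra rose 2.85-fold, while Ptprc, which encodes CD45, and Pecam1, which encodes CD31, stayed between 0 and 3.98 CPM in all 6 libraries. Transcripts of 19 keratinocyte markers made up 2.00%, 4.05% and 3.38% of the counts in NW and 0.0895%, 0.840% and 1.49% at 3 d. The groups did not overlap in that share, and the exact two-sided permutation test gave p = 0.1, the smallest that 3 against 3 libraries allow. In bulk RNA, fewer cells of a kind and less RNA per cell cannot be told apart.

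At 3 d, 1784 genes were higher (12.0% of the genes tested) and 1363 were lower (9.15%), and 1389 (9.32%) and 1139 (7.64%) of these changed at least 2-fold. The median change over all genes was 0.00 on the log2 scale. At 40.3% of genes all 3 libraries of 1 group lay above all 3 of the other. With the log2 keratinocyte share as a further term of the fit, 454 genes were higher and 119 lower, so 79.2% of the calls were rises in place of 56.7%. Of the 3147 called genes, 555 were also called in that fit (17.6%), all with the same sign. The share was lower in every 3 d library than in any NW library, so the term takes up part of the group difference. A call lost in that fit, here and below, therefore cannot be assigned to keratinocyte content or to wounding. Scaling by total counts moved the median of all genes by -0.114 and gave 1473 higher and 1579 lower genes, 48.3% of the calls being rises. Changes below are relative to TMM scaling. Counts of list members called against NW are to be read beside the 12.0% of all genes that were higher and the 9.15% that were lower.

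**Figure D1:**
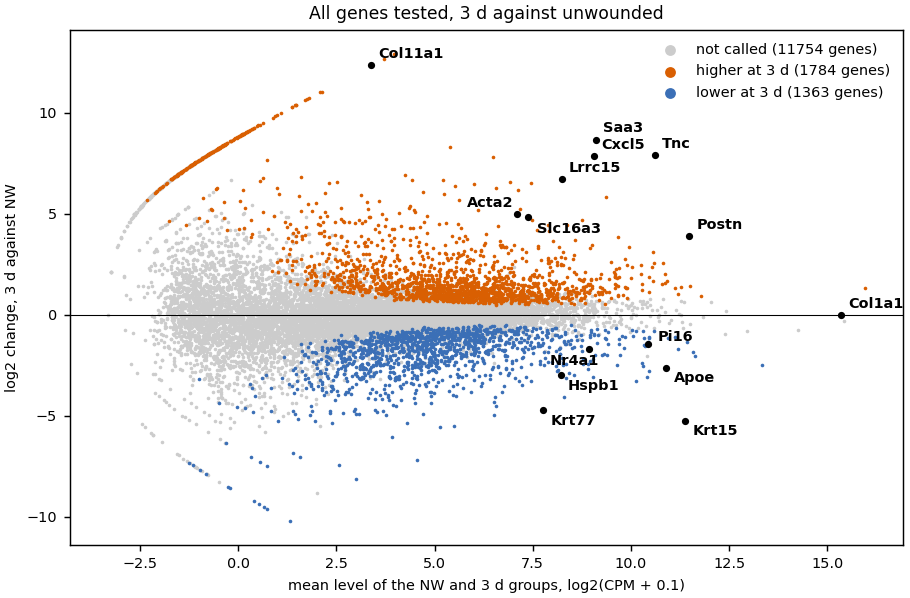
Log2 change of 3 d over NW (y axis) against the mean level of both groups as log2(CPM + 0.1) (x axis) for the 14901 genes tested, 1 point per gene; orange genes were higher at 3 d (1784), blue genes lower (1363), grey genes not called, and black points are named genes. Tnc, Saa3 and Cxcl5 lie far above 0 and Krt15 far below it, Col1a1 lies at 0, and the thin arcs at the left hold genes with no counts in 1 group, whose fitted change is no bound.

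Of 24 contractile and actin cytoskeleton genes tested, 12 were higher (12.0% of all genes were), 1 was lower (9.15% of all genes) and 11 were not called, with a median change of 1.24. Acta2 (chr19:34240336-34255373 in mm10), which encodes the smooth muscle actin that defines myofibroblasts, stood at 11.3, 8.82 and 5.51 CPM in NW and at 235, 199.6 and 362 CPM at 3 d. The lowest 3 d library lay far above the highest NW library, a 31.2-fold rise with a log2 change of 4.96 ± 0.49 (SE, adjusted p = 3.62e-05). The actin crosslinker gene Actn1 rose 11.9-fold, from 2.06, 5.69 and 3.48 CPM to 47.2, 42.4 and 45.1 CPM. Pdlim7, which encodes an actin-associated scaffold, rose 4.71-fold, and the actin-binding calponin gene Cnn3 and caldesmon gene Cald1 rose 2.98-fold and 3.40-fold. Tagln, another smooth muscle gene, went from 2.48, 2.11 and 3.28 CPM to 8.14, 7.18 and 19.7 CPM (log2 change 2.15 ± 0.54, adjusted p = 0.0129). Its highest value came from 3 d library 3, and without that library it was not called (adjusted p = 0.081; range over all alternatives 0.000577 to 0.081). With the keratinocyte term 6 contractile genes were called higher, Acta2 among them.

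Of 17 SRF and YAP factors and targets, 3 were higher and 3 lower (17.6% each, against 12.0% and 9.15% of all genes), with a median of -0.14. Srf, which encodes serum response factor, fell 3.60-fold, from 96.2, 161 and 71.2 CPM to 24.8, 28.8 and 37.4 CPM. Yap1, whose product is the transcriptional coactivator of the Hippo pathway, fell 2.08-fold, and the LIM protein gene Ajuba fell 2.75-fold, though it was not called without NW library 3 (adjusted p = 0.0549; range over all alternatives 0.000667 to 0.48). Tead2, which encodes a DNA-binding partner of YAP, rose 3.24-fold. The YAP target Ankrd1 had no counts in NW and 2.97, 0.0811 and 2.96 CPM at 3 d, which is at least 59.0-fold higher against a floor of 3 counts over the NW group. The CArG box, the binding element of SRF, was searched for on both strands of the contractile genes' promoters, from 250 bases before to 50 after the RefSeq start (GRCm38.p6). It was present in 4 of 24 promoters (16.7%) of the 21 genes matched, against 1.63% of all 32851 promoters, in Cnn2, Myl6, Myl9 and Vcl, none of which was called. It was in none of 6 promoters of the 4 matched genes among 6 panel myofibroblast genes. Only the strict pattern of CC, 6 bases of A or T and then GG was searched for. Elements that depart from it or lie outside the window would be missed, so this count does not show that these promoters lack SRF elements. Among the SRF and YAP genes, none of the 3 falls was called with the keratinocyte term, and 1 rise was.

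Of 15 wound myofibroblast markers, 13 were higher, none was lower, and the median change was 3.46, against 12.0% higher among all genes. Lrrc15 (chr16:30269302-30283254), which encodes a membrane protein of activated fibroblasts, stood at 8.24, 7.43 and 1.59 CPM in NW and at 679, 777 and 342 CPM at 3 d. That is a 104-fold rise with no overlap (log2 change 6.70 ± 0.70, adjusted p = 4.91e-05). Postn (chr3:54359267-54391041), which encodes the matricellular protein periostin, stood at 502, 261 and 338 CPM and at 5509, 6759 and 3913 CPM (14.7-fold, log2 change 3.88 ± 0.32, adjusted p = 1.28e-05). Cthrc1, which encodes a secreted protein of matrix-producing fibroblasts, rose from 123, 71.0 and 62.5 CPM to 951, 817 and 1048 CPM, 11-fold. Adam12, which encodes a membrane metalloprotease, rose 91.8-fold from 4.23, 3.88 and 3.22 CPM to 433, 414 and 195 CPM, and the transcription factor gene Runx1 rose 10.7-fold. Fap, which encodes a surface protease of reactive fibroblasts, went from 34.5, 15.8 and 21.6 CPM to 60.4, 81.1 and 52.0 CPM and was called (log2 change 1.43). It was not called without NW library 2, NW library 3 or 3 d library 2 (adjusted p up to 0.0657; range over all alternatives 0.002 to 0.244). In the fit with the keratinocyte term, 9 of these markers were called higher.

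**Figure D2:**
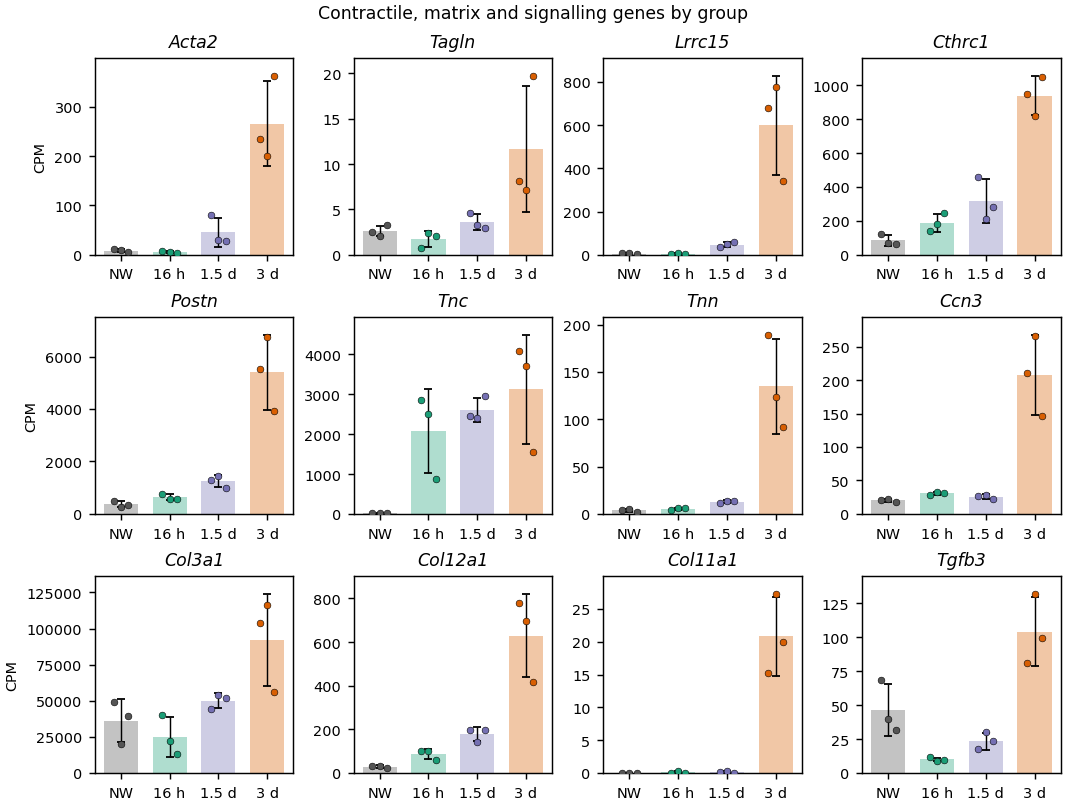
Levels of 12 contractile, matrix and signalling genes in CPM (y axes start at 0) in NW, 16 h, 1.5 d and 3 d; bars are means, error bars SD over 3 libraries and points single libraries. Acta2, Lrrc15, Tnn, Ccn3 and Col11a1 are lower in the first 3 groups than at 3 d, Tnc is already near its 3 d level at 16 h, and Tgfb3 is lower at 16 h and 1.5 d than in NW.

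Collagen genes other than those of type I made up the rises of this family. Of 23 collagen chains, 14 were higher and none was lower, with a median of 1.41. Col1a1 stood at 55845, 20448 and 50171 CPM in NW and at 42878, 57939 and 25399 CPM at 3 d, so the groups overlapped and the log2 change was -0.00 (adjusted p = 0.998). Col3a1, which encodes the type III chain of early granulation tissue, stood at 49126, 20022 and 39546 CPM and at 103679, 116339 and 55947 CPM. All 3 wound libraries exceeded all NW libraries, a 2.54-fold rise that narrowly passed the test (log2 change 1.34 ± 0.44, adjusted p = 0.0448). It was not called without NW library 2, NW library 3, 3 d library 1 or 3 d library 2 (adjusted p up to 0.145; range over all alternatives 0.0057 to 0.433). Per kilobase of exon, Col3a1 went from a mean of 6512 to 16533 RPKM.

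The larger rises were in minor fibrillar and fibril-associated chains. Col12a1, whose product coats fibrils, went from 33.1, 31.1 and 23.9 CPM to 779, 695 and 416 CPM (21.5-fold, log2 change 4.42 ± 0.31, adjusted p = 7.27e-06). Col11a1, which encodes a fibril-nucleating chain known from cartilage, had no counts in any NW library and 15.3, 27.3 and 19.9 CPM at 3 d, at least 601-fold higher. Col24a1, another fibrillar chain, also had none in NW and 31.3, 30.3 and 16.9 CPM at 3 d, at least 746-fold higher. These genes are therefore seen in wounds at 3 d and not at this depth in NW. Col5a3 rose 10.3-fold, Col8a1 17.8-fold and Col6a3 5.48-fold. When the keratinocyte term was added, 7 collagen chains were called higher.

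Of 23 collagen modifying and crosslinking genes tested, 17 were higher and 1 was lower, with a median of 1.45. Plod2, whose lysyl hydroxylase forms the hydroxylysine crosslinks of scar collagen, went from 2.29, 0.625 and 4.61 CPM to 339, 212 and 163 CPM, a 94.7-fold rise. Loxl3, which encodes a lysyl oxidase, rose 12.3-fold from 40.1, 29.8 and 45.8 CPM to 581, 482 and 362 CPM. Both share exon sequence with neighbouring genes, Plod2 over 9.32% and Loxl3 over 13.1% of its length, and the libraries keep no strand. The prolyl hydroxylase genes P4ha1 and P4ha2 rose 3.05-fold and 2.74-fold, P3h1 3.86-fold, and P4hb, the shared subunit that is also a disulfide isomerase, 3.99-fold. The single gene that fell was Pcolce2, which encodes an enhancer of procollagen cleavage, from 727, 566 and 511 CPM to 64.1, 106 and 74.0 CPM. With the keratinocyte term 9 were called higher and 1 lower.

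Of 22 provisional matrix and matricellular genes, 12 were higher and 4 lower, with a median of 1.72. Tnc (chr4:63959785-64047015), which encodes the anti-adhesive glycoprotein tenascin-C, stood at 17.2, 11.6 and 10.2 CPM in NW and at 4087, 3718 and 1561 CPM at 3 d. This 239.8-fold rise had a log2 change of 7.91 ± 0.57 (adjusted p = 7.27e-06). Its paralogue Tnn, tenascin-W, rose 35.9-fold from 4.43, 4.74 and 2.09 CPM to 189, 124 and 91.3 CPM, and Ccn3, which encodes a CCN matricellular protein, rose 10.4-fold from 20.1, 22.8 and 17.1 CPM to 210.4, 266 and 146 CPM. Fibronectin itself, Fn1, overlapped between groups at 1883, 776 and 1287 CPM against 2452, 3217 and 1141 CPM and was not called (adjusted p = 0.217). The 4 genes that fell were Tgfbi, Sparcl1, Smoc2 and Tnxb, named after their values were seen, and none was called with the keratinocyte term.

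Small leucine-rich proteoglycan and elastic fibre genes were divided, with 6 of 23 higher, 2 lower (5 and 1 with the keratinocyte term) and a median of 0.09. Biglycan, Bgn, rose 3.69-fold from 627, 543 and 619 CPM to 2341, 2556 and 1699.9 CPM. The fibrillin gene Fbn2, known from fetal elastic fibres, rose 20.9-fold from 7.21, 7.53 and 12.0 CPM to 219, 238 and 101 CPM. Emilin1 and Efemp2, whose products act in elastic fibre assembly, rose 8.55-fold and 7.71-fold, and fibulin-2, Fbln2, rose 5.86-fold. Among 12 hyaluronan and large proteoglycan genes, 6 were higher and 1 was lower (3 and none with the keratinocyte term). The synthase gene Has1 was high and overlapped between groups, at 2264, 1724 and 1437 CPM and 2203, 2252 and 1430.3 CPM, and was not called. Versican, Vcan, rose 6.49-fold, and Prg4, which encodes the lubricant proteoglycan lubricin, rose 21.6-fold from 22.3, 19.2 and 22.0 CPM to 617, 588 and 164 CPM.

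Of 22 matrix protease and plasminogen system genes, 13 were higher and none was lower, with a median of 1.57. Adam19, a membrane metalloprotease gene, rose 10.8-fold from 14, 12.6 and 12.3 CPM to 165, 167 and 89.4 CPM. Mmp19 rose 7.58-fold, the aggrecanase gene Adamts4 5.04-fold, and Plat, which encodes tissue plasminogen activator, 2.91-fold. The stromelysin gene Mmp3 overlapped with no NW library, at 1333, 789 and 801 CPM against 1624, 1577 and 1482 CPM, yet was not called (adjusted p = 0.0775). In the fit with the keratinocyte term, 7 were called higher.

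The promoters of this list were searched for TGACTCA, the AP-1 element, on both strands of the same window. It was present in 5 of 14 promoters (35.7%) of the 11 genes matched, against 5.20% of all 32851 promoters. An NF-kB site was in 2 of the 14 (14.3%, against 8.46% of all). Of the 5 genes with TGACTCA, Adam19, Mmp10, Mmp13 and Plaur were called higher and Mmp3 was not. The last 150 bases before the start of the 4 called genes are shown to place the element, in capitals. Whether the element bears on the rises was not tested.
Mmp13, chr9:7272364-7272513, plus strand: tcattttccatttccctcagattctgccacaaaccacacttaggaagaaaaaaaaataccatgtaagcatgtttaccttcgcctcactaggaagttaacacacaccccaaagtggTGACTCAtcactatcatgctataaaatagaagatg
Mmp10, chr9:7502192-7502341, plus strand: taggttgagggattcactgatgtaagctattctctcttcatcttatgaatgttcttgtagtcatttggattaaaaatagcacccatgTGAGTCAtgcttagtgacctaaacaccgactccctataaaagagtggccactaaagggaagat
Plaur, chr7:24462333-24462482, plus strand: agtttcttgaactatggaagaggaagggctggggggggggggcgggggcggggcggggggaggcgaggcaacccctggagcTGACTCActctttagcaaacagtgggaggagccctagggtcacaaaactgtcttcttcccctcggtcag
Adam19, chr11:46055834-46055983, plus strand: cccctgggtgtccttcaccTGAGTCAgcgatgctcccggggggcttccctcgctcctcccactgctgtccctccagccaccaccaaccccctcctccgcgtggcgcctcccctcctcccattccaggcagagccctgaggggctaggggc
The element ended 28 bases before the start in Mmp13, 56 in Mmp10, 62 in Plaur and 124 in Adam19, and in Mmp10 and Adam19 it lay on the opposite strand. Mmp13, the collagenase gene, stood at 0, 0 and 3.52 CPM in NW and at 21.5, 23.9 and 83.3 CPM at 3 d. Mmp10 stood at 0, 1.18 and 3.05 CPM and at 14.9, 11.2 and 10.4 CPM. Plaur, the urokinase receptor gene, rose 2.30-fold. Mmp10, Mmp13 and Plaur fall outside the rule for named genes and were chosen for their promoters after their values were seen. A match is a description of the letters and shows no binding.

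Inhibitors of these proteases split, with 5 of 13 higher and 3 lower. Timp1, which encodes a metalloprotease inhibitor, rose 26.0-fold from 24.9, 41.7 and 28.8 CPM to 1090.0, 547 and 846 CPM. In contrast, Timp2 fell 2.53-fold, Timp3 2.5-fold and Reck 2.81-fold, and none of these 3 falls was called with the keratinocyte term. Of 16 integrin chains, 6 were higher and 1 lower, and 3 were called higher without 3 d library 2 and 4 with the keratinocyte term. Itga5, the fibronectin receptor chain, rose 9.69-fold from 137, 73.2 and 66.9 CPM to 1099, 912 and 672 CPM, and its partner Itgb1 rose 2.72-fold.

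Some inflammatory genes differed from NW at 3 d. Of 20 chemokine and scavenging receptor genes, 6 were higher and 3 lower (5 and 1 with the keratinocyte term), with a median of 0.28. Cxcl5, a neutrophil attractant, stood at 10.2, 0.954 and 2.69 CPM in NW and at 1430.5, 622 and 1120.1 CPM at 3 d, a 229.9-fold rise (log2 change 7.84 ± 0.80, adjusted p = 4.36e-05). Its level at 16 h was higher, 4613 ± 667 CPM (SD), and 3 d was lower than 16 h by a log2 change of -2.13 (adjusted p = 0.0465). Cxcl3 rose 10.3-fold from 25.5, 19.5 and 9.59 CPM to 225, 143 and 193 CPM, and Cxcl12, which encodes a homing signal for stem cells and leukocytes, 4.82-fold. The neutrophil attractant Cxcl1 and the monocyte attractant Ccl2 overlapped between groups, at 702 to 1309 CPM against 1255 to 1764 CPM for Cxcl1, and neither was called. Cxcl16 fell 3.01-fold and the scavenging receptor gene Ackr4 fell 17.4-fold, from 19.5, 60.0 and 45.9 CPM to 0.692, 2.07 and 4.41 CPM.

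An NF-kB site was found in 5 of the 14 chemokine promoters matched (35.7%), against 8.46% of all promoters, in Ccl20, Cxcl1, Cxcl10, Cxcl2 and Cxcl3. TGACTCA was in 2 of the 14 (14.3%, against 5.20%). Only Cxcl2 and Cxcl3 among the 5 genes with the NF-kB site were called higher at 3 d, so their last 150 bases before the start are shown with the NF-kB site in capitals.
Cxcl2, chr5:90903749-90903898, plus strand: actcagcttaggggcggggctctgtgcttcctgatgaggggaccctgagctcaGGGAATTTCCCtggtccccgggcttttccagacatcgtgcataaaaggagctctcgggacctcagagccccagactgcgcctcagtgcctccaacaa
Cxcl3, chr5:90785951-90786100, plus strand: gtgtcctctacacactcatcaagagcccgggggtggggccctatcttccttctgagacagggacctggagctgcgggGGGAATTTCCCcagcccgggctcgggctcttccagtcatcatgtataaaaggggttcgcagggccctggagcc
The capitals are the same 11 letters in both genes and hold 2 overlapping matches. Cxcl2, outside the rule for named genes, went from 146, 152 and 75.3 CPM to 277, 228 and 233 CPM.

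Of 23 cytokine and haematopoietic growth factor genes, 11 were higher and 2 lower, with a median of 1.13. Il1rl1, which encodes the receptor of interleukin-33, stood at 32.9, 25.8 and 9.88 CPM in NW and at 1839.7, 972 and 1095 CPM at 3 d, a 57.0-fold rise. Il33 itself, an alarmin gene, rose 6.01-fold from 149, 277 and 189.9 CPM to 1509.6, 1077 and 1117 CPM, so ligand and receptor transcripts were both high in the same libraries. Il11, a profibrotic cytokine gene, rose 18.8-fold from 0.534, 1.78 and 1.03 CPM to 32.9, 8.96 and 21.6 CPM, and Lif rose 6.63-fold. Il6 overlapped at 491, 408 and 269 CPM against 426, 276 and 298 CPM and was not called. Il34, which encodes a ligand of the macrophage receptor CSF1R, fell 6.33-fold. When the keratinocyte term was added, 4 of this list were called higher and 1 lower.

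Acute phase and complement genes gave 4 higher and 2 lower of 17 (3 and 1 with the keratinocyte term). Saa3, which encodes a serum amyloid A made locally in inflamed tissue, went from 6.75, 0.724 and 0.796 CPM to 1748, 737 and 836 CPM, a 405-fold rise. Saa genes are related in sequence, and sharing of reads among them was not checked. Factor B of complement, Cfb, rose 14.6-fold from 128, 98.2 and 84.7 CPM to 1722, 1872 and 946 CPM. Lcn2 varied among the wound libraries, at 62.4, 81.3 and 9.50 CPM, and rose 24.3-fold. Haptoglobin, Hp, rose 11.1-fold.

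Of 25 interferon-stimulated genes, 15 were higher and none lower, with a median of 1.81. Rsad2, which encodes the antiviral protein viperin, rose 14.3-fold from 4.65, 2.5 and 1.92 CPM to 48.8, 57.0 and 23.6 CPM. Zbp1, a nucleic acid sensor gene, rose 5.07-fold and Ddx58, which encodes the RNA sensor RIG-I, 4.77-fold. Ifi44 had no counts in NW and 10.6, 10.4 and 4.48 CPM at 3 d, at least 241-fold higher. With the keratinocyte term 7 were called higher. Of 11 class I and peptide loading genes, none was higher and 4 were lower, with a median of -1.03. H2-K1 fell 2.27-fold from 1035, 1339 and 1094 CPM to 421, 555 and 550.0 CPM, and B2m, which encodes its light chain, fell 2.09-fold from 1092, 1398 and 1069.6 CPM to 476, 560.0 and 663 CPM. Without NW library 2, 1 of the 11 was called lower, and with the keratinocyte term none was. B2m was not called without NW library 2, 3 d library 1 or 3 d library 2 (adjusted p up to 0.0802; range over all alternatives 0.00205 to 0.408).

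Of 23 TGF-beta and activin genes, 5 were higher (21.7%, against 12.0% of all genes) and 1 lower (4.35%, against 9.15%), with a median of 0.41. Of these genes, 3 were called higher without NW library 2 and 2 with the keratinocyte term. Inhba, which encodes the activin A subunit, stood at 26.3, 4.77 and 9.29 CPM in NW and at 493, 249 and 286 CPM at 3 d, a 25.5-fold rise. Ltbp2, which encodes a latent TGF-beta binding protein, rose 8.30-fold, and Tgfb1 rose 2.40-fold from 8.70, 11.8 and 8.33 CPM to 25.5, 22.1 and 21.4 CPM. Tgfb3 rose 2.24-fold from 68.4, 39.4 and 31.9 CPM to 81.0, 132 and 99.5 CPM, but was not called without NW library 2, NW library 3 or 3 d library 2 (adjusted p up to 0.072; range over all alternatives 0.00274 to 0.108). The repressor gene Tgif1 fell 2.34-fold.

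BMP genes gave 4 higher and 6 lower of 19, with a median of -0.67. The ligand Bmp4 fell 10.8-fold from 37.9, 38.6 and 42.1 CPM to 1.51, 5.96 and 3.54 CPM, and Bmp2 fell 4.53-fold. Id3, a known target gene of BMP signalling among other pathways, fell 6.72-fold from 442, 689 and 333 CPM to 40.4, 70.2 and 107 CPM. The receptor gene Bmpr1b rose 59.7-fold from 0.420, 0.296 and 0.133 CPM to 21.2, 13.1 and 16.6 CPM, and the secreted modulator gene Bmper rose 6.76-fold. In the fit with the keratinocyte term, 2 were called higher and 3 lower.

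Of 27 Wnt pathway genes, 3 were higher and 3 lower, close to the 12.0% and 9.15% of all genes, with a median of -0.87. With the keratinocyte term 1 of each was called. The Wnt-binding protein gene Sfrp2 stood at 284, 208 and 351 CPM in NW and at 2069, 1089 and 963 CPM at 3 d, a 4.89-fold rise. Rspo1, which encodes an enhancer of Wnt signalling, fell 16.3-fold from 77.1, 46.7 and 44.9 CPM to 2.52, 3.57 and 4.23 CPM, and the inhibitor gene Apcdd1 fell 6.52-fold. The receptor gene Fzd1 rose 2.85-fold. Among 21 Notch and Hedgehog genes 4 were higher and 4 lower, but 1 was called higher without NW library 2 or 3 d library 1 and 1 lower without NW library 3. The keratinocyte term left 1 of them called, a rise. The Notch ligand gene Dll1 fell 5.0-fold.

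Of 22 growth factor genes, 7 were higher and 2 lower. Neither fall was called without NW library 2 or 3 d library 1, and the keratinocyte term left 3 rises and no fall. Ereg, which encodes the EGF receptor ligand epiregulin, stood at 0, 0 and 2.39 CPM in NW and at 252, 177 and 109.6 CPM at 3 d, a 221-fold rise. Vegfa, the main angiogenic factor, rose 3.70-fold from 54.7, 41.7 and 46.9 CPM to 198, 157 and 176 CPM, and Angptl4 rose 5.11-fold. Fgf7, which encodes a keratinocyte growth factor, rose 2.81-fold. Of 19 IGF axis and imprinted genes, 6 were higher and 3 lower (3 and 1 with the keratinocyte term). Igf1 rose 2.87-fold and the imprinted adaptor gene Grb10 5.97-fold. All 3 that fell encode IGF-binding proteins: Igfbp3, from 1594, 1249.9 and 1222 CPM to 241, 271 and 207 CPM, Igfbp5 and Igfbp6. Retinoic acid genes gave 4 higher and 4 lower of 16, 2 being lower without 3 d library 1 and 3 higher and 1 lower with the keratinocyte term. Rdh10, which encodes an enzyme that makes retinaldehyde, rose 12.6-fold from 18.9, 11.9 and 13.7 CPM to 252, 154 and 158 CPM, and the receptor gene Rarg fell 2.56-fold.

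DNA replication genes were among those higher at 3 d. Of 25 G1/S and replication genes, 17 were higher and none lower, with a median of 1.46. The replicative helicase gene Mcm5 rose 4.86-fold from 18.5, 14 and 19.3 CPM to 99.7, 63.8 and 88.0 CPM. Rrm2, which encodes a ribonucleotide reductase subunit, rose 5.51-fold, Uhrf1 4.17-fold, Mcm2 3.69-fold and Mcm7 2.92-fold. When the keratinocyte term was added, 8 were called higher. Of 25 G2/M and mitosis genes, 7 were higher and none lower, 18 were not called, and the median was 0.87. Their summed share of counts was 0.0523% in NW and 0.0873% at 3 d, with overlap (exact permutation p = 0.2), and 3 were called with the keratinocyte term. Plk1, which encodes a mitotic kinase, rose 7.05-fold from 3.36, 3.19 and 8.99 CPM to 33.9, 27.6 and 48.3 CPM, and the spindle checkpoint kinase gene Bub1 rose 6.21-fold from 1.07, 4.31 and 4.51 CPM to 20.3, 19.1 and 22.3 CPM. The proliferation marker Mki67 overlapped at 51.3, 19.4 and 63.1 CPM against 50.7, 41.6 and 46.4 CPM and was not called (adjusted p = 0.943). Against 16 h, 20 of the 25 mitotic genes were higher (5.86% of all genes were). The count against NW ranged from 5 to 10 when 1 library was left out.

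The CCAAT box, a site known from mitotic promoters, was present in 19 of 22 promoters (86.4%) of the 21 mitotic genes matched, against 37.4% of all promoters. The element TTTGAA, the core of the CHR element of these genes, was present in 17 of 22 (77.3%), against 17.9%. Of the 18 genes with CCAAT, only Plk1, Bub1 and Ccnb2 were called higher at 3 d, and the others, Mki67 among them, were not called. The promoters of the called genes are shown, with CCAAT or its reverse complement in capitals, because they place the box near the start.
Plk1, chr7:122159285-122159434, plus strand: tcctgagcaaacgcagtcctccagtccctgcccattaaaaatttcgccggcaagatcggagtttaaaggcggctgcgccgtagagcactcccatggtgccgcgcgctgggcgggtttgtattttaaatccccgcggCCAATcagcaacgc
Bub1, chr2:127831860-127832009, minus strand: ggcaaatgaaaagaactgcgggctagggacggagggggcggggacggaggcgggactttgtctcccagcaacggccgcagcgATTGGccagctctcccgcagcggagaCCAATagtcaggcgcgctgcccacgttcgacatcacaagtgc
Ccnb2, chr9:70421555-70421704, minus strand: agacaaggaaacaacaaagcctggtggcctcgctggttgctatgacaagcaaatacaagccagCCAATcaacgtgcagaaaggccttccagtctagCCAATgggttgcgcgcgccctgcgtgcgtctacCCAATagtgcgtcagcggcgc
Plk1 holds 1 box, 9 bases before the start. Bub1 holds 2, at 37 and 63 bases, and Ccnb2 holds 3, between 16 and 82 bases. Ccnb2, the cyclin B2 gene, rose 3.77-fold. A match shows no binding.

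Of 15 cell cycle inhibitors and p53 targets, 1 was higher and 5 were lower. Cdkn1a, which encodes the inhibitor p21, fell 2.96-fold from 559, 804 and 551 CPM to 176, 231 and 239.6 CPM. Gadd45a, a DNA damage gene, fell 4.90-fold, and Btg2, an antiproliferative gene, fell 2.23-fold. With the keratinocyte term 1 of them was called lower.

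Of 23 nucleolar genes of ribosome assembly, 4 were higher than in NW (17.4%, against 12.0% of all genes) and none was lower. In either direction, 21.1% of all genes were called. Against 16 h, 17 of the 23 were lower (3.67% of all genes were). From 2 to 5 were called higher when 1 library was left out, with 2 without NW library 1 or 3 d library 1 and none with the keratinocyte term. Mybbp1a, which encodes a nucleolar protein, stood at 75.6, 74.6 and 93.2 CPM in NW and at 180.3, 149 and 150.5 CPM at 3 d, below its 415 ± 87.1 CPM (SD) at 16 h. Aminoacyl-tRNA synthetase genes gave 15 of 20 higher and none lower, with a median of 0.83. Gars, the glycyl enzyme, rose 2.96-fold from 143, 110.1 and 139 CPM to 464, 363 and 336 CPM, and Vars, the valyl enzyme, 3.57-fold. Without 3 d library 1, 8 of the 20 were called, and with the keratinocyte term 2 were.

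Glycolysis genes rose almost throughout. Of 19 tested, 16 were higher and none lower, with a median of 1.79. Slc16a3 (chr11:120948484-120959000), which encodes the lactate exporter MCT4, stood at 9.08, 14.8 and 9.72 CPM in NW and at 378, 283 and 297 CPM at 3 d. The groups did not overlap and the rise was 28.5-fold (log2 change 4.84 ± 0.40, adjusted p = 1.28e-05). Pkm, the pyruvate kinase gene, rose 5.18-fold from 411, 515 and 521 CPM to 2639, 2346 and 2519 CPM. The enolase gene Eno1 rose 5.09-fold, Gapdh 4.02-fold and the isomerase gene Gpi1 3.61-fold. In the fit with the keratinocyte term, 12 of the list were called higher. Of 19 hypoxia-responsive genes, 12 were higher and 1 was lower, with a median of 1.27, and 5 were called higher and none lower with the keratinocyte term. Ero1l, which encodes an oxidase of the endoplasmic reticulum, rose 4.48-fold and Ddit4, an inhibitor of mTOR, 4.87-fold.

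Of 32 oxidative phosphorylation subunits, 2 were higher and none lower, with a median of -0.01, where 21.1% of all genes were called in either direction. Neither rise was called without NW library 2 or 3 d library 1. Of 19 TCA cycle genes 4 were higher (21.1%, against 12.0% of all genes) and none lower, and 1 was higher without NW library 3 or 3 d library 1. Pcx, which encodes pyruvate carboxylase, rose 3.23-fold. Fatty acid oxidation genes gave 2 higher and 3 lower of 20, also near the share of all genes, and none was lower without 3 d library 1. No gene of these 3 lists was called with the keratinocyte term. Cholesterol synthesis and uptake genes gave 9 lower and 1 higher of 24, with a median of -0.72, and 5 were called lower without NW library 1 or 3 d library 1. Hmgcs1, the entry enzyme of sterol synthesis, stood at 257, 226 and 223 CPM in NW and at 87.5, 102 and 89.8 CPM at 3 d, a 2.53-fold fall. Msmo1 fell 3.84-fold and Fdft1 3.34-fold, both enzymes of the same pathway. None of this list was called with the keratinocyte term.

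Of 28 ER chaperone and secretory genes, 15 were higher and 1 lower, with a median of 0.88, while 10 were called higher without 3 d library 1 and 6 with the keratinocyte term. The translocon gene Sec61a1 rose 3.62-fold from 452, 269 and 357 CPM to 1554, 1267 and 1078 CPM, the disulfide isomerase gene Pdia4 3.34-fold and the chaperone gene Hsp90b1 2.90-fold. Serine, one-carbon and proline synthesis genes gave 5 higher and 2 lower of 21, with 1 higher without 3 d library 1 and 1 with the keratinocyte term. Mthfd1l, which encodes a mitochondrial folate enzyme, rose 16.5-fold from 5.23, 2.53 and 1.76 CPM to 51.6, 62.0 and 43.5 CPM, while the cytosolic enzyme gene Shmt1 fell 3.42-fold. Of 17 NRF2 antioxidant genes, 3 were higher (17.6%, against 12.0% of all genes) and none lower, and none was called with the keratinocyte term. Of 13 metal genes, 7 were higher and 2 lower (5 and none with that term). The iron exporter gene Slc40a1 stood at 0, 0.362 and 0.0332 CPM in NW and at 6.72, 10.1 and 10 CPM at 3 d, a 65.0-fold rise. The metalloreductase gene Steap1 rose 102-fold from 0.420, 0.526 and 1.16 CPM to 99.1, 45.8 and 73.8 CPM. The metallothionein genes Mt1 and Mt2 fell 2.54-fold and 2.69-fold, and both were also lower at 3 d than at 16 h.

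Of 23 immediate early genes tested, 16 were lower and 2 higher, with a median of -1.08. Nr4a1, which encodes an orphan nuclear receptor, fell 3.26-fold from 663, 837 and 753 CPM to 144, 297 and 249.6 CPM. Nr4a3 fell 5.31-fold, Ier2 3.79-fold, and the AP-1 genes Fosl1 and Fosl2 fell 2.55-fold and 2.13-fold. These genes are known to respond within minutes to tissue handling and digestion, and handling times were not analysed here. When the keratinocyte term was added, 2 were called lower. Of 15 heat shock genes, 5 were lower and 1 was higher, and 1 was called lower and none higher with the keratinocyte term. Hspb1, which encodes a small heat shock protein, fell 8.03-fold from 374, 783 and 427 CPM to 39.5, 76.1 and 81.6 CPM. The 1 heat shock gene that was higher was the mitochondrial chaperonin gene Hspd1, which rose 2.17-fold. Of 18 glucocorticoid-responsive and clock genes, 5 were lower and 2 higher (1 and 1 with the keratinocyte term). Zbtb16 fell 14.2-fold and Tsc22d3, a glucocorticoid target, 4.19-fold, while the kinase gene Sgk1 rose 4.34-fold.

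**Figure D3:**
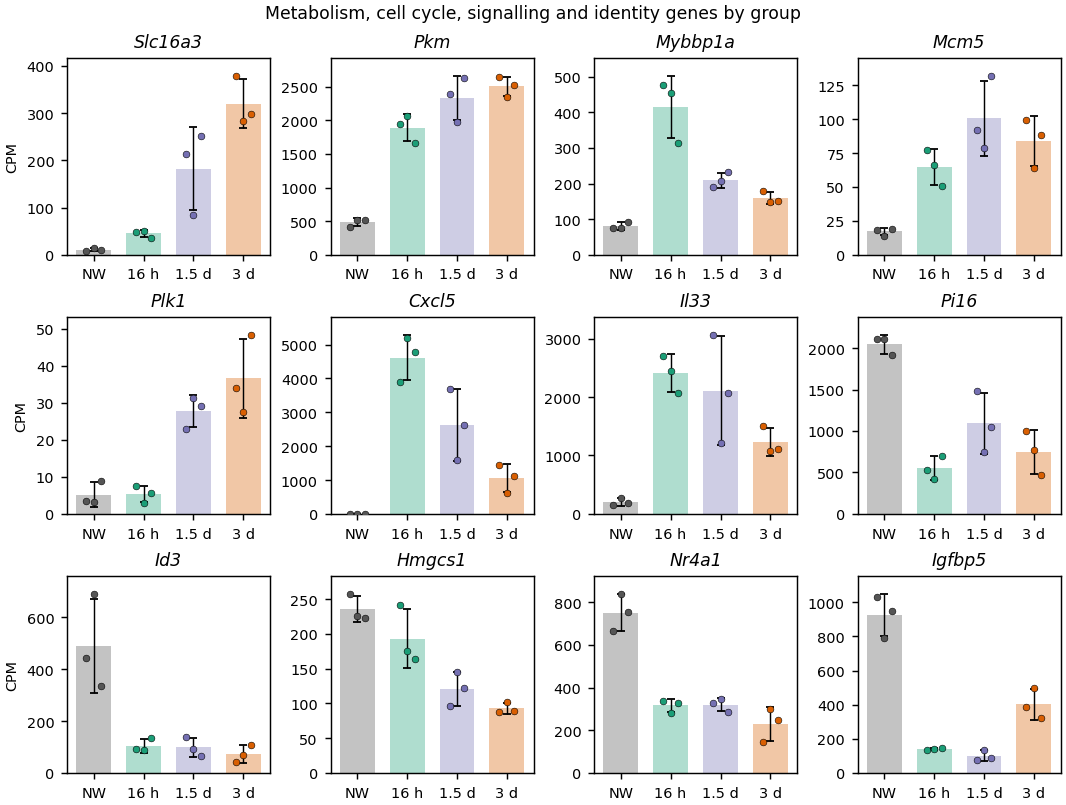
Levels of 12 genes of metabolism, cell cycle, signalling and identity in CPM (y axes start at 0) in NW, 16 h, 1.5 d and 3 d; bars are means, error bars SD over 3 libraries and points single libraries. Slc16a3 is highest at 3 d, Cxcl5 and Mybbp1a are highest at 16 h and lower at 3 d, Plk1 is low in NW and at 16 h (means of 5.18 and 5.39 CPM), and Pi16, Id3 and Nr4a1 are highest in NW.

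Of 18 adventitial and fascia markers, 8 were lower and 1 higher, with a median of -1.02, and 5 were called lower without NW library 1 or 3 d library 1. The summed share of counts of this list was 1.17% in NW and 1.15% at 3 d (exact permutation p = 0.9). Pi16, which marks a progenitor-like fibroblast of many tissues, stood at 2106, 2113 and 1916 CPM in NW and at 994, 766 and 470.3 CPM at 3 d, a 2.75-fold fall with no overlap (adjusted p = 0.00565). Dpp4, another marker of these cells, went from 422, 231 and 298 CPM to 149, 208 and 89.5 CPM and was called (log2 change -1.09, adjusted p = 0.0398). It was not called without NW library 1, NW library 3, 3 d library 1 or 3 d library 3 (adjusted p up to 0.152, which is also the highest over all alternatives; the lowest was 0.0122). Limch1 fell 8.27-fold, Cd55, a complement regulator gene, 3.31-fold and Anxa3 2.61-fold. With the keratinocyte term 4 were called lower.

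Of 17 papillary and hair follicle fibroblast markers, 6 were higher and 2 lower (4 and none with the keratinocyte term). The retinoic acid binding protein gene Crabp1 rose 9.65-fold from 16.3, 11.7 and 6.14 CPM to 117, 53.1 and 158 CPM. Of 20 preadipocyte genes, 3 were higher and 5 lower, 3 being lower without NW library 2 or 3 d library 1, and 1 in each direction with the keratinocyte term. The lipid transport gene Apoe fell 6.18-fold from 2236, 4820.4 and 2816 CPM to 107, 725 and 765 CPM, with 3 d library 1 the lowest by far. The lipid droplet coat gene Plin2 rose 2.18-fold. Of 19 general fibroblast markers, 6 were higher and 3 lower, with 2 higher without NW library 2 and 3 without 3 d library 1. Only 1 of these was called with the keratinocyte term, as higher. Vimentin, Vim, rose 3.14-fold from 778, 785 and 647 CPM to 2693, 1921 and 2320.2 CPM, and Cd9, which encodes a tetraspanin, fell 3.97-fold.

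Of 27 mesenchymal and skeletal-type transcription factor genes, 11 were higher and 4 lower, with a median of 0.92. Runx2, the master regulator of bone formation, stood at 0.649, 1.28 and 1.09 CPM in NW and at 37.6, 29.1 and 31.7 CPM at 3 d, a 32.3-fold rise. Sox11 rose 15.1-fold, and Hic1, a marker of mesenchymal progenitors, 2.65-fold. Osr2 fell 2.70-fold. Without 3 d library 1, 5 were called higher, and with the keratinocyte term 3 were.

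**Figure D4:**
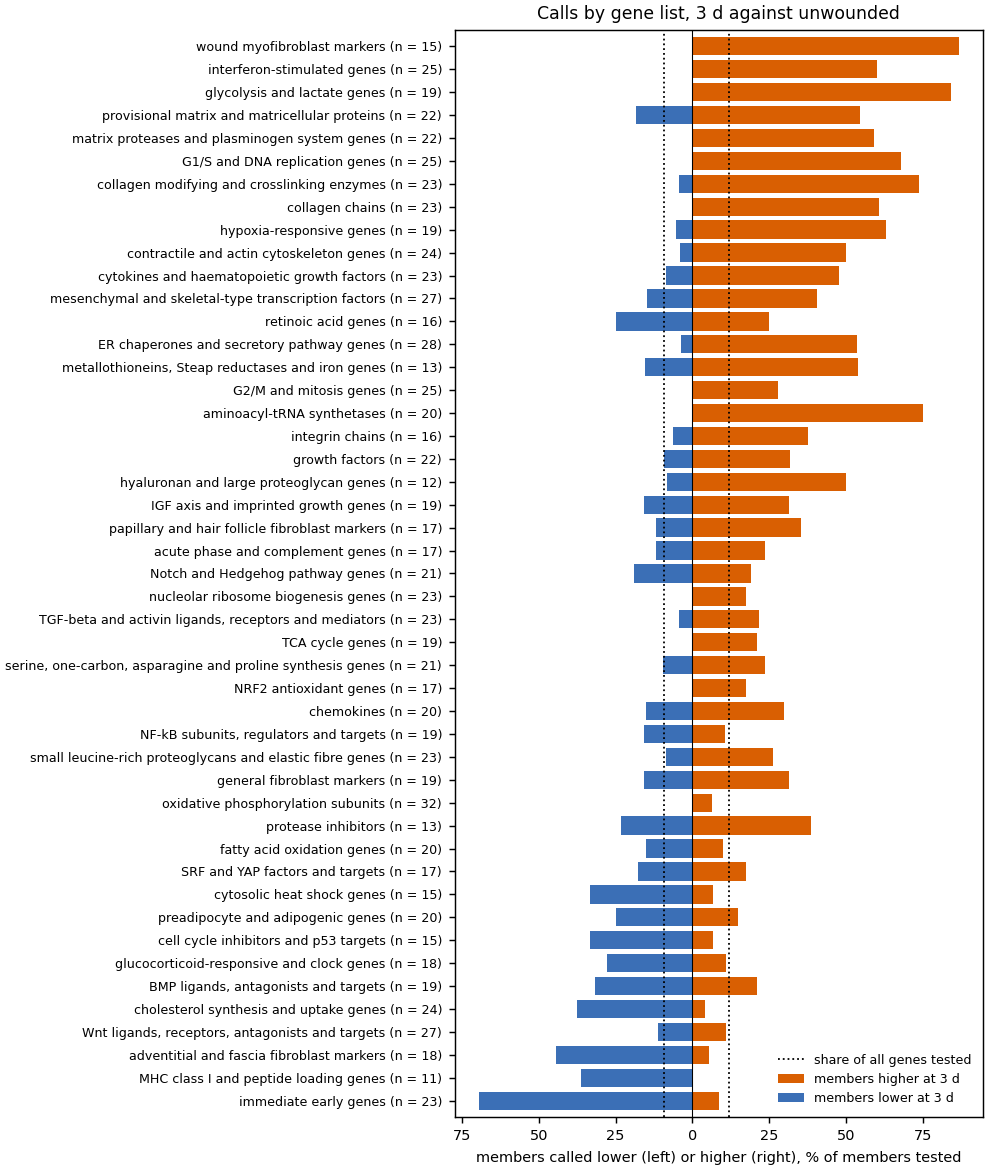
Share of tested members called higher (to the right) and lower (to the left) at 3 d against NW, in percent, for each gene list. Marker lists of other cell types are left out. Lists are ordered by their median log2 change, and dotted lines mark the shares of all genes tested. Glycolysis, collagen processing, replication and myofibroblast lists lie mostly to the right, and immediate early genes, adventitial markers and cholesterol genes mostly to the left.

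Among all genes with at least 20 CPM in the higher group, the largest rises included some outside these lists. Prokr2, which encodes a prokineticin receptor, had no counts in NW and 54.4, 30.3 and 8.96 CPM at 3 d, at least 877-fold higher. Car4, a membrane carbonic anhydrase gene, stood at 0.153, 0.625 and 0 CPM in NW and at 112, 72.2 and 66.9 CPM at 3 d. Hs6st2, which encodes a heparan sulfate sulfotransferase, and the kinesin gene Kif26b stood at no more than 1.22 CPM in any NW library and at 27.0 to 52.4 CPM in every 3 d library. The largest falls included epidermal and follicle genes and others. Krt15, Krt77, Calm5, Dapl1 and Serpinb7 are known from epidermis and follicles, and Krt15 fell 38.4-fold from 3981, 6259.9 and 5455 CPM to 32.8, 159 and 216 CPM. Car3, a carbonic anhydrase gene of fat and muscle, fell 148-fold from 32.0, 66.8 and 40.0 CPM to 0, 0.446 and 0.470 CPM. Inmt, which encodes an indole methyltransferase, fell 31.7-fold from 203, 229 and 102 CPM to 2.12, 9.05 and 5.67 CPM.

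Markers of other cell types were mostly low. Of 19 keratinocyte markers, 11 were lower and 2 higher, with a median of -2.06. The higher genes were the wound keratins Krt6a, at 4.43, 17.6 and 39.0 CPM in NW and 35.7, 330.1 and 738 CPM at 3 d, and Krt6b, whose near-identical sequences share counts uncertainly. The keratinocyte share differed among the 3 d libraries, and library 1 held least. From 7 to 11 markers were called lower when 1 library was left out, fewest without NW library 3. The part of the keratinocyte share in the falls listed above was not tested, since the keratinocyte term cannot be told apart from the group difference. In the fit with that term, 1 keratinocyte marker was called lower and 3 higher. Of 17 macrophage markers tested, 6 were higher, 3 without NW library 2 and 1 with the keratinocyte term. Among these, Cd14, which fibroblasts also express, rose 2.44-fold, Itgam went from 0, 0.0658 and 0.265 CPM to 3.95, 4.30 and 2.10 CPM, and C1qc, Mrc1 and Fcgr1 had no counts in NW and at most 1.34 CPM on average at 3 d. C1qc was not called without NW library 2 (adjusted p = 0.0508; range over all alternatives 0.000245 to 0.116), nor Fcgr1 without NW library 2 or 3 d library 1 (up to 0.0631; 0.00421 to 0.232). The summed macrophage share was 0.00978% at 3 d and 0.00786% in NW (exact permutation p = 0.4). No endothelial, pericyte or muscle marker was called higher. Among 7 neutrophil markers tested 1 was higher, Cxcr2, a chemokine receptor gene, with no counts in NW and 0, 1.14 and 1.08 CPM at 3 d (adjusted p = 0.0129; not called by voom, adjusted p = 0.227), while Ly6g and Elane had no counts at 3 d. Among 6 mast and dendritic cell markers tested 1 was higher, the chemokine receptor gene Xcr1, with no counts in NW and 0.773, 0.690 and 0.795 CPM at 3 d. None of 3 lymphocyte markers tested was called, and Cd3e and Cd8a had no counts at 3 d. The summed lymphocyte share was 4.53e-05% in NW and 0.000245% at 3 d, without overlap (exact permutation p = 0.1), and the neutrophil share was 0.000162% and 0.000479% (p = 0.2 by the same exact test). Of 8 adipocyte markers, 5 were lower (3 without 3 d library 1, 1 with the keratinocyte term), and their share was 0.0275% in NW and 0.00597% at 3 d (exact permutation p = 0.1).

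**Figure D5:**
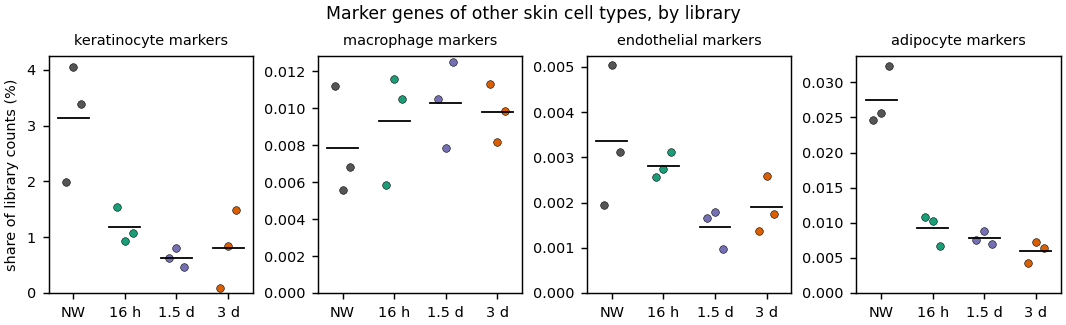
Share of all counts on keratinocyte, macrophage, endothelial and adipocyte markers in percent (y axes), by group; points are single libraries and lines are group means over 3 libraries. Keratinocyte markers range from 2.00% to 4.05% in NW and from 0.0895% to 1.49% at 3 d, and the other panels have far smaller scales.

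Within the 3 d group, the genes of widest range among the 3 libraries at 50 CPM or more were epidermal. Krt79 stood at 5.74, 351 and 226 CPM, Lgals7 at 8.51, 76.0 and 195 CPM, Ly6d at 11.3, 111 and 260.3 CPM, Krtdap at 6.88, 86.8 and 162 CPM, Cstdc5 at 5.05, 59.3 and 225 CPM and Krt6a as given above. In all 6 genes library 1 was lowest. Against NW, Krt79 was not called, and Lgals7, Ly6d, Krtdap and Cstdc5 were called but not in every fit that left out 1 library (adjusted p up to 0.132, 0.135, 0.0782 and 0.0677; ranges over all alternatives 0.00957 to 0.781, 0.00993 to 0.761, 0.00493 to 0.537 and 0.000244 to 0.144). The libraries that ended these calls when left out were NW library 2 for all 4 genes, NW library 3 for Lgals7, 3 d library 2 for Lgals7, Ly6d and Krtdap, and 3 d library 3 for Cstdc5. By contrast, Pkm, Cnn3 and Cald1 varied little among these libraries.

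The 3 d libraries were also set against the earlier wound times. Against 16 h, 873 genes were higher (5.86% of those tested) and 547 lower (3.67%), 9.53% in either direction. Against 1.5 d, 15 were higher (0.101%) and 6 lower (0.0403%), 0.141% in either direction. Of the 1784 genes higher than in NW, 380 were also higher than at 16 h, 73 were lower than at 16 h and 12 were higher than at 1.5 d. These comparisons share the 3 d libraries. Leaving out 1.5 d library 3 or 3 d library 2 left 2 genes called higher than at 1.5 d. Without 3 d library 2, 0 genes were called lower than at 1.5 d. In that fit, therefore, at most 2 of the rises over 1.5 d named below, and neither of the falls, were called. Leaving out 16 h library 2 gave 523 higher and 203 lower than at 16 h. Genes above both earlier times included Acta2 (5.26 ± 1.77 CPM at 16 h and 45.7 ± 29.7 CPM at 1.5 d, SD), Lrrc15, Postn, Tnn, Ccn3, Col12a1, Cdh11, Tgfb3 and Wnt9a. Cdh11, which encodes the mesenchymal cadherin, stood at 29.5, 16.7 and 14.4 CPM in NW and at 214, 210.0 and 187 CPM at 3 d, against 43.2 ± 15.6 CPM at 1.5 d. The ligand gene Wnt9a rose from 6.98, 5.23 and 6.77 CPM to 24.8, 33.9 and 19.5 CPM. Below NW and both earlier times were Cyp4b1, a cytochrome P450 gene, at 85.8, 99.4 and 67.3 CPM in NW and 21.7, 19.1 and 20.5 CPM at 3 d, and Il31ra, which encodes the receptor of the itch cytokine interleukin-31, at 14.2, 10.3 and 13.3 CPM and 3.87, 4.38 and 2.93 CPM. Tnc, in contrast, was called neither against 16 h (log2 change 0.59, adjusted p = 0.436) nor against 1.5 d (0.26, adjusted p = 0.963).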

How the data were processed

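Gene counts of 12 bulk RNA-seq libraries were used as deposited. Per the file headers the authors counted read pairs per gene over mm10 refGene exons with featureCounts 2.0.0, without strand, and these raw counts were not normalized. STAR, SAMtools, Subread and Partek are named in the submitters' processing notes, and their settings are not given in the sources used here. Genes were filtered by group (filterByExpr), scaled by TMM and tested with edgeR 4.0.16 (R 4.3.3), using a robust quasi-likelihood fit over all 12 libraries and Benjamini-Hochberg adjustment over 14901 genes within each of 3 comparisons. SEs were derived from the F statistic. Alternatives used limma 3.58.1 (voom), DESeq2 1.42.0, other scalings and filters, a keratinocyte term and fits without 1 library. In data simulated for 3 d against NW over 13964 genes, 52% of 4-fold and 4% of 2-fold changes were recovered, and 0.0581% of unchanged genes were called. Only 100 genes were changed at each fold, against 3147 genes called in the real comparison. Adjustment is stricter when few genes change, so these shares may be too low for the real comparison.

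Named genes were a panel, from each list the 5 genes (or fewer) of lowest p, the 12 largest rises and falls at 20 CPM or more, up to 8 rises and falls called against NW and both earlier times, and the 6 of widest range at 3 d at 50 CPM or more. In lists of at most 15 measured members any could be named. The members and lists were chosen with earlier results of these data known. A gene with no counts in NW was compared with 3 counts over the group (0.0346 CPM). Shares of counts and these floors cover counting error only. Promoter sequences came from RefSeq (GRCm38.p6). Near-identical or related genes (Krt6a and Krt6b, Hspa1a and Hspa1b, Saa and Ly6 genes) may split reads uncertainly. Of 386 named genes, 45 share exon sequence with another gene. Some genes of these lists are not reported here by name.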

Additional observations from a re-analysis of the deposited data

Results flagged for a closer look

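The genes below differed between 3 d and 1.5 d by a test of that difference (edgeR, adjusted over all genes), and also between 3 d and 16 h. In the fit of all 12 libraries, their change against NW thus differed with the time after wounding. Most of these calls against 1.5 d did not hold in every fit without 1 library. Without 3 d library 2, only 2 of all genes were called higher than at 1.5 d and 0 lower. The log2 change of 3 d over 1.5 d was 2.54 for Acta2, 2.999 for Ccn3, 2.237 for Cdh11, 1.821 for Col12a1, 3.65 for Lrrc15, 2.118 for Postn, 3.369 for Tnn, 2.145 for Tgfb3 and 2.671 for Wnt9a. It was -1.693 for Cyp4b1 and -2.352 for Il31ra. Igfbp5 rose by 2.006 against 1.5 d while it was below NW, at 389, 495 and 319 CPM against 1034, 791 and 950 CPM.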

How the results depend on the processing

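For 3 d against NW, 1784 higher and 1363 lower genes became 454 and 119 with the keratinocyte term. Leaving out 1 library gave 1093 to 1643 higher and 733 to 1125 lower genes, fewest without 3 d library 1, with 861 lower without NW library 2. The other alternatives stayed within 1.5 times. Of the 275 named genes that were called, 227 were called in every fit without 1 library, 146 with the keratinocyte term and 142 in every alternative, and none reversed.

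For 3 d against 16 h (873 and 547), DESeq2 gave 1455 higher and 897 lower, total counts 971 lower (42.0% of calls higher in place of 61.5%), the keratinocyte term 322 lower, and leaving out 1 library 523 to 716 higher and 203 to 331 lower. For 3 d against 1.5 d (15 and 6), no filter gave 28 and 23, voom 52 and 22, DESeq2 124 and 76, and the keratinocyte term 25 and 16. Total counts gave 30 lower, the 6 libraries compared 3 lower, and leaving out 1 library 2 to 15 higher and 0 to 14 lower. The cause of these shifts was not tested. The higher count was 2 without 1.5 d library 3 or 3 d library 2.

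The labels do not say whether replicate numbers pair the samples, and the samples were treated as unpaired. For libraries with 1 number in 3 d and NW, deviations from the group mean correlated at 0.143, -0.0906 and -0.00531. With 3 libraries per group these values cannot exclude a pairing. With the replicate block, 1459 genes were higher and 1121 lower than in NW, 681 and 333 against 16 h, and 10 and 9 against 1.5 d. With 3 mice per group, a 2-fold change was rarely recovered in simulated data that held few changed genes. Recovery in the real comparison was not measured.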
